A study of Mus musculus with 22 samples.

Results

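Ubiquitin-conjugating enzymes and deubiquitinases were described here in RNA from the mouse hindbrain, across libraries from 11 animals. Members were taken by symbol alone: every gene whose symbol starts with Ube2 and a letter, or with Usp and a digit. This gave 75 of the 12596 genes in the table, with 31 Ube2 genes and 44 Usp genes. A mouse annotation (GENCODE M21, GRCm38) holds 43 and 59 symbols that match, and the remainder were not analysed here. The 75 genes had passed the filter on low values that the authors' table had already been through.

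All animals were on a C57Bl/6 background and came from a cross of a Th-cre line with a Slc6a2-eGFP/Rpl10a line. In the second line a green fluorescent tag on the ribosomal protein Rpl10a is driven from Slc6a2, the noradrenaline transporter gene, so that ribosomes of noradrenergic cells can be immunoprecipitated with the RNA on them. The 4 groups were hTyr IP (n = 5), EYFP IP (n = 6), hTyr input (n = 5) and EYFP input (n = 6). Each animal gave an immunoprecipitated library (IP), labelled as noradrenergic, and a library of RNA from before that step (input), labelled as total hindbrain. By the treatment labels, 5 animals had received hTyr (human tyrosinase, an enzyme of pigment synthesis) and 6 had received EYFP, a fluorescent protein that serves as the control. Both sets carried the same transgenes. Numbers in the labels mark the replicates as separate animals, named here by treatment and number (hTyr_501).

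Ubiquitin is attached to proteins in steps. An E1 enzyme activates it, an E2 enzyme (most Ube2 genes) carries it on a cysteine and, with an E3 ligase, passes it to the target. Deubiquitinases remove it again, and the Usp genes encode the largest family of them, cysteine proteases that differ in their targets and in where they sit in the cell. The system sets how long proteins last, sorts receptors and marks histones, and neurons depend on it at synapses.

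Both families work through a single cysteine, and the coding stretches around it show what the members that match a common pattern share. The stretches below were cut from GENCODE M21 transcripts (GRCm38) and are printed in the direction of the coding strand, with the codon of that cysteine in capitals. The Usp stretch was found as an asparagine, any residue, glycine or alanine, any residue, one of threonine, serine, asparagine or tryptophan, then the cysteine and an aromatic residue. Usp9x, Usp15, Usp47, Usp33 and Usp29 are shown because their transcripts were among those most enriched in IP, and Usp49 and Usp27x because theirs were among the most depleted.
Usp9x: aatgctggtgctactTGTtacatgaac
Usp15: aacttgggaaatacgTGTttcatgaac
Usp47: aaccaggcgatgacgTGCtatttgaat
Usp33: aacattggaaatactTGTtatatgaac
Usp29: aacttgggaaatactTGTtacatgaat
Usp49: aacctggggaataccTGCtacatgaac
Usp27x: aatcttggcaacacgTGTtttatgaac
These lie in single coding exons at chrX:13145204-13145230 (plus strand), chr10:123146806-123146832 (minus), chr7:112058989-112059015 (plus), chr3:152363995-152364021 (plus), chr7:6962036-6962062 (plus), chr17:47672831-47672857 (plus) and chrX:7374592-7374618 (minus). Such a stretch was found in 40 of the 44 Usp genes. It was not found in Usp6nl, Usp39, Usp53 and Usp54. Among the 11981 genes of the table with a coding transcript, 49 (0.409%) held it, and 40 of these were the Usp genes. The pattern allows for variants such as the alanine of Usp47 and the tryptophan of Usp10, so these counts describe the match and test nothing. The Usp4 and Usp11 stretches share 24 of 27 bases, those of Usp15 and Usp4 share 22 of 27, and those of Usp24 and Usp9x share 23 of 27. Other pairs were as close or closer, such as Usp22 and Usp4 at 25 of 27 and Usp15 and Usp8 at 24 of 27.

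For the Ube2 genes the stretch was a histidine, proline or cysteine, asparagine or histidine, then 7 or 8 residues of any kind, then the cysteine. Ube2d1, Ube2l3 and Ube2m are shown because they were among the Ube2 transcripts most depleted in IP, and Ube2d3 because it is a close relative of Ube2d1 that did not pass the test.
Ube2d1: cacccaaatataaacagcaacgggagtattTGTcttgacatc
Ube2d3: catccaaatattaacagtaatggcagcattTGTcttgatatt
Ube2l3: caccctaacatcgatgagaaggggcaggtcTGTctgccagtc
Ube2m: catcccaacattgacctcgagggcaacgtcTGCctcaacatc
They lie in single coding exons at chr10:71258241-71258282 (minus strand), chr3:135459999-135460040 (plus), chr16:17160033-17160074 (minus) and chr7:13036217-13036258 (minus), and the Ube2d1 and Ube2d3 stretches share 34 of 42 bases. The pattern was found in 21 of the 31 Ube2 genes. Among the 11981 genes with a coding transcript, 113 (0.943%) held it, and 21 of these were the Ube2 genes. Most genes that held it were thus not Ube2 genes. Ube2v1 and Ube2v2, known as inactive partners of the E2 enzyme Ube2n, did not hold it, nor did Ube2z, Ube2o, Ube2ql1, Ube2q1, Ube2q2, Ube2j1 and Ube2j2. Ube2d-ps has no coding transcript and is annotated as a transcribed unprocessed pseudogene. A missing match says only that these letters are absent from the transcripts searched.

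The table gives log2 CPM, the log2 of reads scaled to the size of the library, with a small prior count, and whole reads could be recovered from it. Libraries held 12654489 to 25100142 reads, and a member had from 82 reads (Ube2l6) to 12096 reads (Usp9x) in a library. Of 8 noradrenergic markers, 8 passed the test as higher in IP in both treatments, with summed levels of 483 to 1047 CPM in EYFP IP and 598 to 1733 CPM in hTyr IP against 122 to 163 CPM in input. IP libraries also held RNA of other cells. Summed oligodendrocyte markers reached 5928 to 8229 CPM in IP and 6337 to 8928 CPM in input, and astrocyte markers 1390 to 1982 CPM in IP and 1447 to 1767 CPM in input. Marker counts here stand beside 28.5% of all genes called higher and 28.1% lower in EYFP animals, and 27.4% and 27.0% in hTyr animals. Of 7 astrocyte markers 3 were higher and 1 lower in IP in EYFP animals, and 4 and 1 in hTyr animals. Their changes ran from -0.39 to 0.65 on the log2 scale in EYFP and from -0.50 to 0.79 in hTyr animals. Aldh1l1 rose by 0.65 and 0.70 and Slc1a2 by 0.59 and 0.79. Of 8 oligodendrocyte markers 2 were higher and 3 lower in EYFP animals, and 3 and 3 in hTyr animals. Of 8 microglial markers 0 were higher and 1 lower in EYFP animals, and 2 and 1 in hTyr animals. Microglial markers stood at 181 to 365 CPM in IP and 181 to 318 CPM in input, and 3 of 5 endothelial markers, those in the table, at 15.9 to 37.7 CPM in IP, with 0 of the 3 called in EYFP animals and 1 higher in hTyr animals. Markers of neurons with other transmitters were at 1136 to 1552 CPM in IP and 867 to 1163 CPM in input, with 8 of 10 higher in IP in EYFP animals and 7 of 10 in hTyr animals. No listed marker in the table was at 0 in all libraries of a group, and the part of these cells in the results on ubiquitin genes was not tested. In bulk RNA, fewer cells of a type and less RNA per cell cannot be told apart.

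A pair of libraries stood apart from the rest. The input library of animal hTyr_501 had the lowest of the 11 input values for 24 of the 44 Usp and 12 of the 31 Ube2 genes, and for 25.7% of all genes. The other input libraries were lowest for at most 9 Usp and 4 Ube2 genes. That hTyr_501 library was also the highest input library for 2 Usp and 4 Ube2 genes and for 16.6% of all genes. The IP library of animal EYFP_505 was the lowest of the 11 IP libraries for 17 Usp genes, 0 Ube2 genes and 17.2% of all genes. It was the highest of them for 6 Usp genes, 11 Ube2 genes and 16% of all genes.

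IP against input asks which of these transcripts were enriched on tagged ribosomes. Usp transcripts were mostly higher in IP and Ube2 transcripts mostly lower. In EYFP animals 24 of 44 Usp genes were higher and 7 lower at an adjusted p of 0.05 (limma), while over all genes tested 28.5% were called higher and 28.1% lower. Of the 31 Ube2 genes 2 were higher and 15 lower. In hTyr animals 24 Usp genes were higher and 6 lower, and 2 Ube2 genes were higher and 13 lower, where 27.4% of all genes were called higher and 27.0% lower. The median change was 0.26 on the log2 scale for Usp and -0.18 for Ube2 in EYFP animals, against -0.03 over all genes. It was 0.29 and -0.17 in hTyr animals, against -0.04 over all genes. Without animal EYFP_505 the EYFP counts were 25 and 8 for Usp and 2 and 15 for Ube2. Of the 12596 genes, 3646 were then called higher and 3685 lower, against 3587 and 3536 with all animals. Without animal hTyr_501 the hTyr counts were 25 and 5 for Usp and 2 and 14 for Ube2. Over all genes they were then 3282 and 3146, against 3454 and 3399 with all animals. IP stood wholly above input for 14 Usp genes and wholly below it for 5 in EYFP animals, and for 1 and 9 Ube2 genes, where this held for 16.7% and 13.4% of all genes. In hTyr animals the counts were 19 and 4 for Usp and 1 and 10 for Ube2, against 20.7% and 16.8% of all genes. The families were described by these counts and not tested as sets.

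The 2 sets of animals share no library. All 24 Usp genes called higher in EYFP animals were also called higher in hTyr animals, as were the 2 Ube2 genes, and 13 Ube2 and 6 Usp genes were called lower in both. Over all genes 24.2% were called higher in both treatments and 22.1% lower in both. Ube2e1, Ube2j1 and Usp46 passed as lower in EYFP animals alone, a difference that the interaction test below does not show for any of them. IP exceeded input in every one of the 11 animals for 19 Usp genes and 1 Ube2 gene, and fell short of it in every animal for 7 Usp and 11 Ube2 genes. Over all genes, 22.8% were above input in every animal and 21.4% below it. Within single animals the Usp median ran from 0.05 to 0.40 and the Ube2 median from -0.30 to -0.07, so the sign held in each animal. With the animal as a block, 27 Usp genes were higher and 9 lower in EYFP animals, where 31.5% of all genes were called higher and 33.1% lower. In hTyr animals 24 were higher and 8 lower with the block, against 29.1% and 30.0% of all genes. That fit added Usp11, Usp13, Usp24, Usp30, Usp54 and Ube2j2 in EYFP animals and Usp30 and Usp36 in hTyr animals, and lost no member. With each library centred on its median, the Usp split was 21 higher and 12 lower in EYFP animals and 20 and 10 in hTyr animals. With that centring 25.2% of all genes were called higher and 33.6% lower in EYFP animals, and 24.0% and 33.1% in hTyr animals.

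**Figure D1:**
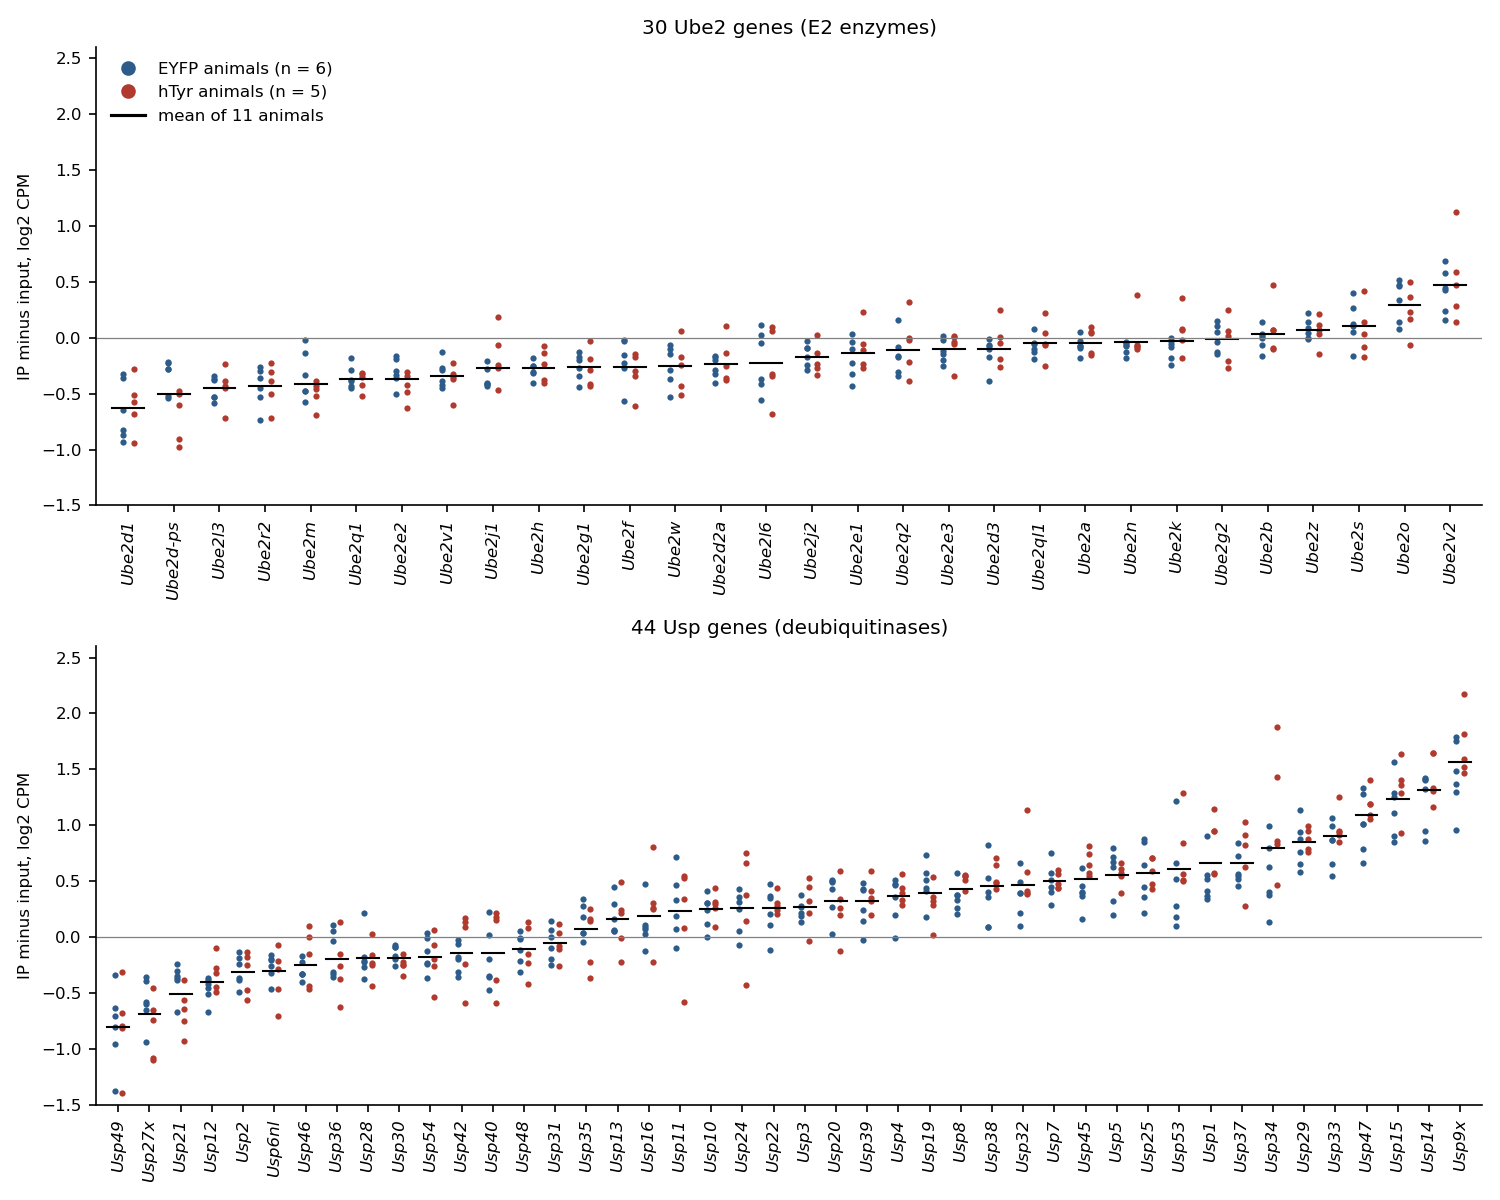
Difference between IP and input in log2 CPM (vertical axis) within each of the 11 animals (points; blue EYFP, red hTyr) for 30 Ube2 genes (top) and 44 Usp genes (bottom), ordered by the mean (black bars). Usp9x, Usp14 and Usp15 lie at the high end and Usp49 and Usp27x at the low end, and 11 Ube2 genes were below 0 in every animal.

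Usp9x, a large X-linked deubiquitinase with many substrates, had the largest rise of all members. Its gene spans chrX:13071498-13173328 on the plus strand (GRCm38). In EYFP animals its level ran from 8.38 through a median of 9.05 to 9.32 log2 CPM in IP and from 7.42 through 7.58 to 7.67 in input. In hTyr animals it was 8.92, 8.85, 8.88, 9.21 and 9.22 in IP and 6.75, 7.26, 7.41, 7.69 and 7.40 in input (animals hTyr_501, hTyr_502, hTyr_508, hTyr_509 and hTyr_510). Every IP library was above every input library. The rise was 1.44 (SE 0.12, adjusted p = 6.41e-07) or 2.72-fold in EYFP animals and 1.71 (SE 0.14, adjusted p = 5.31e-08) or 3.28-fold in hTyr animals, folds being on the scale of the deposited values with their prior count.

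Usp14 is bound to the proteasome, where it trims ubiquitin from substrates. Its IP values in hTyr animals were 7.21, 7.18, 7.06, 7.44 and 7.44 log2 CPM, and its input values 5.57, 5.85, 5.90, 5.80 and 6.14. In EYFP animals IP ran from 6.68 through 7.28 to 7.51 and input from 5.83 through 5.95 to 6.10. IP and input did not overlap in either treatment. The rise was 1.42 (SE 0.11, adjusted p = 2.84e-08) in hTyr and 1.23 (SE 0.11, adjusted p = 9.13e-07) in EYFP animals. Usp14 shares 2169 exon bases with Thoc1 on the other strand, and the strandedness of the counting is not given in the sources used here. Thoc1 itself rose by 0.89 in EYFP and 1.08 in hTyr animals, so the reads of this pair may not be fully separate.

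Usp5, which takes apart free ubiquitin chains, stood at 7.95 ± 0.20 log2 CPM in EYFP IP (SD, n = 6) and 7.39 ± 0.12 in input, and rose by 0.56 (SE 0.09, adjusted p = 6.75e-05). In hTyr animals it rose by 0.56 as well (SE 0.08, adjusted p = 2.76e-05), from 7.37 ± 0.14 to 7.92 ± 0.08 (SD, n = 5). Its EYFP groups overlapped, since animal EYFP_505 had an IP level of 7.60 and animal EYFP_511 an input level of 7.62. Usp13, a relative of Usp5, had changes of 0.18 and 0.14 that did not pass the test without the block. So 2 of 3 genes for free chains and the proteasome passed as higher in each treatment. The share of all genes called higher was 28.5% in EYFP and 27.4% in hTyr animals.

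Usp15, Usp4 and Usp11 form a trio of paralogs. Usp15 lay between 5.67 and 6.54 log2 CPM in EYFP IP (median 6.27) and between 4.77 and 5.26 in EYFP input (median 5.02). In hTyr animals it was 6.13, 6.07, 5.88, 6.37 and 6.33 in IP and 4.49, 4.78, 4.95, 4.97 and 4.97 in input. IP stood above input throughout, by 1.16 (SE 0.12, adjusted p = 1.66e-06) and 1.32 (SE 0.12, adjusted p = 1.21e-07). Usp4 rose by less, 0.33 and 0.40, with adjusted p values of 0.000986 and 0.00141. Usp11 did not pass in either treatment and is described separately.

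Usp47, known for its action on a DNA repair polymerase, rose by 1.01 (SE 0.10, adjusted p = 1.42e-06) in EYFP animals and 1.19 (SE 0.12, adjusted p = 5.23e-07) in hTyr animals. Its EYFP IP values lay between 6.13 and 6.75 log2 CPM and its EYFP input values between 5.34 and 5.74, without overlap. The genes of endosomal and receptor sorting all rose: Usp33 by 0.83 and 0.98, Usp8 by 0.35 and 0.51, and Usp20 by 0.37 and 0.25 in EYFP and hTyr animals. With the length trend removed, 2 of these 3 genes passed in hTyr animals. Usp20 was lower in IP than in input in animal hTyr_501 (-0.12). Of all genes, 24.2% were called higher in both treatments. Usp29, an imprinted gene, rose by 0.82 and 0.87. Usp29 shares 2582 exon bases with the antisense gene Zim3, and Usp33 shares 1478 with Gm43857, so their counts carry the same doubt as that of Usp14.

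Usp34, which acts on axin in Wnt signalling, rose by 0.56 (SE 0.15, adjusted p = 0.00399) in EYFP and 1.09 (SE 0.18, adjusted p = 8.48e-05) in hTyr animals. Its hTyr input values of 3.68, 4.73, 4.41, 4.99 and 4.29 were widely spread, with animal hTyr_501 the lowest, while its IP values of 5.55, 5.58, 5.24, 5.46 and 5.72 were close together. It overlaps Ahsa2 on the other strand by 2137 exon bases. Ahsa2 had changes of 0.05 and -0.20, neither past the threshold.

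Of the deubiquitinases known from p53 and its ligase MDM2, Usp7 rose by 0.49 and 0.50 and Usp10 by 0.23 and 0.28, while Usp2 fell by 0.30 and 0.32. Usp19, anchored in the endoplasmic reticulum, rose by 0.47 and 0.30. Usp30, anchored in the outer mitochondrial membrane, had changes of -0.15 (adjusted p = 0.0651) and -0.24 (adjusted p = 0.0585), and passed as lower with the animal as a block (adjusted p = 0.0436 and 0.0164).

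**Figure D2:**
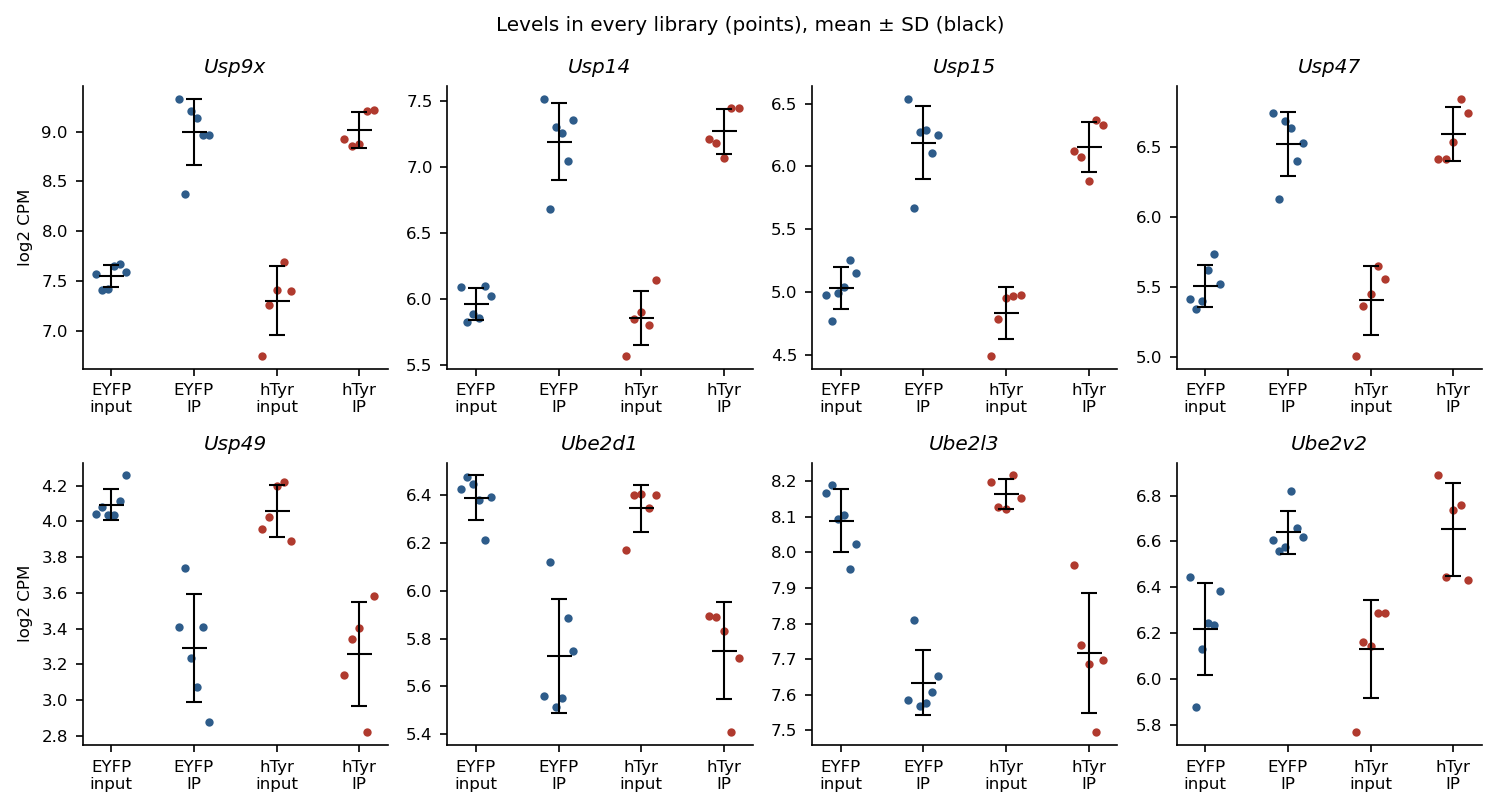
Level in log2 CPM (vertical axes, each with its own range) of 8 members in every library (points) of the 4 groups, with mean and SD in black. Usp9x, Usp14, Usp15, Usp47 and Ube2v2 are higher in IP and Usp49, Ube2d1 and Ube2l3 lower, with no overlap between IP and input of a treatment.

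Several of the Usp genes that were lower in IP are known to act on histones. Of 6 such genes with values, 3 were lower (Usp49, Usp27x and Usp21) and 2 higher (Usp3 and Usp22) in both treatments. Of all genes, 22.1% were called lower in both treatments and 24.2% higher in both. Usp49 had the lowest level of all members per length of exon in IP. It ran from 2.88 through 3.32 to 3.74 log2 CPM in EYFP IP and from 4.03 through 4.06 to 4.26 in EYFP input. In hTyr animals it was 3.14, 3.34, 3.41, 2.82 and 3.58 in IP and 3.96, 4.02, 4.20, 4.22 and 3.89 in input. No IP library reached an input library, and the fall was 0.80 in each treatment (SE 0.12 and 0.14, adjusted p = 5.04e-05 and 0.000202). Usp49 shares 48.3% of its 75-base sequences with Gm20517, a gene annotated over the same exons, so part of its reads may have been assigned elsewhere or discarded.

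Usp27x, a short X-linked gene related to Usp22, fell by 0.59 (SE 0.10, adjusted p = 0.000161) in EYFP and by 0.81 (SE 0.16, adjusted p = 0.000582) in hTyr animals. Its hTyr IP values were 3.38, 4.17, 3.95, 3.97 and 3.22 log2 CPM and its hTyr input values 4.48, 4.62, 4.60, 4.71 and 4.30. Animals hTyr_501 and hTyr_510 were the lowest in IP, yet all 5 IP values stayed below input. Usp21 fell by 0.39 and 0.65. Usp22, a subunit of the SAGA coactivator complex, rose by 0.23 (adjusted p = 0.0331) and 0.29 (adjusted p = 0.0119). The Usp22 call in EYFP animals was lost without animal EYFP_504, EYFP_506, EYFP_507 or EYFP_512 (adjusted p = 0.072, 0.0953, 0.0511 and 0.128), with median centring (0.0839) and with quantile normalization (0.0525), and its hTyr call with each library centred on its median (adjusted p = 0.0503).

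Usp25, Usp32, Usp37, Usp38 and Usp45, placed in no role list, also rose in both treatments, by 0.37 to 0.61 in EYFP and by 0.55 to 0.73 in hTyr animals. Together with Usp29, Usp34 and Usp47 they make 8 of the 17 Usp genes without a listed role, and none of the 17 passed as lower. Of all genes, 24.2% were called higher in both treatments and 22.1% lower in both. With the animal as a block 1 of the 17 passed as lower in each treatment. With the length trend removed, 2 did in EYFP and 3 in hTyr animals. The 13 Usp genes that missed the threshold in EYFP animals had changes of -0.19 to 0.28, and the 14 in hTyr animals -0.26 to 0.30. They include Usp16, a histone deubiquitinase (0.11 and 0.28), and Usp24, a relative of Usp9x (0.22 and 0.30, adjusted p = 0.0512 and 0.0843).

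The genes whose products are activated by the protein WDR48 did not move together. Usp12 fell by 0.47 and 0.33 and Usp46 by 0.30 in EYFP animals, with a change of -0.19 in hTyr animals (adjusted p = 0.136). Usp1 rose by 0.52 and 0.84. Usp1 shares 13.1% of its 75-base sequences with Gm5841, so its reads are less certain.

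Symbols of a family can mislead, as for Usp6nl and Usp39. Usp6nl, named for a region like that of another Usp gene, encodes a RAB GTPase-activating protein, and fell by 0.27 and 0.35. Usp39, a splicing factor, rose by 0.28 and 0.37. Usp53 rose by 0.49 (adjusted p = 0.0191) and 0.74 (adjusted p = 0.000442), but its EYFP call was lost without animal EYFP_506 or EYFP_507 (adjusted p = 0.109 and 0.0548). Usp6nl, Usp39 and Usp53 count among the 44 Usp genes above, and the pattern around the catalytic cysteine was not found in them. A missing match does not show that a gene encodes no deubiquitinase, and the activity of Usp53 was not tested.

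**Figure D3:**
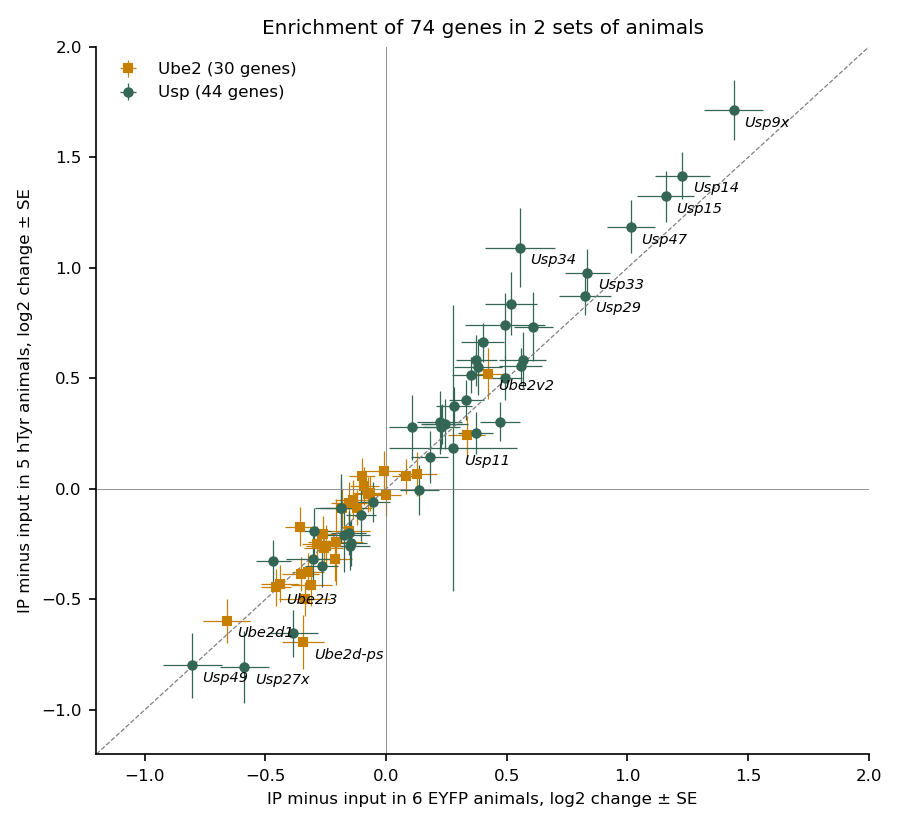
Log2 change from input to IP in the 6 EYFP animals (horizontal axis) and in the 5 hTyr animals (vertical axis) for 74 of the 75 genes, with standard errors as bars; the dashed line marks equal change. Usp genes (circles) reach 1.44 and 1.71 at Usp9x, and most Ube2 genes (squares) lie below 0 on both axes.

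Of the 8 Ube2 genes that work with many ligases, 6 were lower in EYFP and 5 in hTyr animals and none higher, where 28.1% and 27.0% of all genes were called lower. Ube2d1 had the largest fall of the Ube2 genes in EYFP animals. Its level ran from 5.51 through 5.65 to 6.12 log2 CPM in EYFP IP and from 6.21 through 6.41 to 6.48 in EYFP input. In hTyr animals it was 5.89, 5.89, 5.83, 5.41 and 5.72 in IP and 6.17, 6.40, 6.41, 6.35 and 6.40 in input. IP lay below input in both treatments with no overlap, by 0.66 (SE 0.10, adjusted p = 3.25e-05) and 0.60 (SE 0.10, adjusted p = 9.07e-05) in size. Ube2d3, whose product is nearly the same enzyme, had changes of -0.14 (adjusted p = 0.129) and -0.05 (adjusted p = 0.655).

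Ube2l3, the E2 enzyme that serves parkin and related ligases, is one of the more abundant members. Its values were 7.96, 7.74, 7.69, 7.50 and 7.70 log2 CPM in hTyr IP and 8.20, 8.13, 8.12, 8.22 and 8.15 in hTyr input. EYFP IP ran from 7.57 through 7.60 to 7.81 and EYFP input from 7.95 through 8.10 to 8.19. Again IP and input were separate, with falls of 0.45 (SE 0.09, adjusted p = 0.000325) in hTyr and 0.46 (SE 0.06, adjusted p = 2.19e-05) in EYFP animals. Ube2l3 shares 1670 exon bases with Ydjc on the other strand, and Ydjc went the opposite way, with rises of 0.55 and 0.53. Ube2e2 fell by 0.31 and 0.44.

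Ube2m, which carries the ubiquitin-like protein NEDD8, had the highest level per length of all members. It was 8.17, 8.11, 8.23, 8.10 and 8.07 log2 CPM in hTyr IP and 8.70, 8.57, 8.61, 8.53 and 8.76 in hTyr input, a fall of 0.50 (SE 0.08, adjusted p = 4.01e-05). In EYFP animals the groups overlapped, IP running from 7.88 to 8.52 and input from 8.36 to 8.78, and the fall was 0.34 (SE 0.11, adjusted p = 0.0127). Without animal EYFP_512 the EYFP value missed the threshold (adjusted p = 0.0557). Of the 5 genes for ubiquitin-like proteins, 2 were lower in each treatment, Ube2m and Ube2f, another gene for a NEDD8 carrier. The share of all genes called lower was 28.1% in EYFP and 27.0% in hTyr animals.

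Chain-building enzymes differed from one another. Ube2r2, which extends chains with cullin ligases, fell by 0.44 and 0.43. Ube2n had changes of -0.09 and 0.01 and Ube2k of -0.10 and 0.06, none past the threshold. The partners of Ube2n went opposite ways. Ube2v2 ran from 6.56 through 6.61 to 6.82 log2 CPM in EYFP IP and from 5.88 through 6.24 to 6.45 in EYFP input, and in hTyr animals was 6.89, 6.45, 6.74, 6.76 and 6.43 in IP and 5.77, 6.16, 6.14, 6.29 and 6.29 in input. It rose by 0.42 (SE 0.09, adjusted p = 0.000632) and 0.52 (SE 0.11, adjusted p = 0.000997), with no overlap between IP and input. Ube2v1 fell by 0.32 and 0.38, but 56.1% of its 75-base sequences are also in other genes, chiefly Gm20431, which is annotated over the same exons.

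The other Ube2 gene called higher was Ube2o, a large enzyme with both E2 and E3 activity, at 0.33 (adjusted p = 0.0016) in EYFP and 0.24 (adjusted p = 0.031) in hTyr animals. Its hTyr call was lost without animal hTyr_502, hTyr_508, hTyr_509 or hTyr_510 (adjusted p = 0.122, 0.0538, 0.0633 and 0.127), which leaves Ube2v2 alone in that count. Of the enzymes of endoplasmic reticulum degradation, Ube2j1 fell by 0.36 (adjusted p = 0.000135) in EYFP animals and had a change of -0.17 (adjusted p = 0.112) in hTyr animals. The hTyr value passed without animal hTyr_501 (-0.26, adjusted p = 0.022). Ube2g1 fell by 0.26 and 0.27. Ube2j2 had changes of -0.15 (adjusted p = 0.142) and -0.19 (adjusted p = 0.066), the first of which passed with the animal as a block (adjusted p = 0.0408). Ube2g2 had changes of -0.0016 and -0.03, with adjusted p values of 0.986 and 0.812.

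Ube2h, Ube2q1, Ube2w and Ube2d2a also fell in both treatments, by 0.29, 0.35, 0.25 and 0.26 in EYFP animals and by 0.25, 0.39, 0.26 and 0.20 in hTyr animals. Ube2a and Ube2b, the paralogous enzymes of histone and DNA damage marks, had changes of -0.07 and -0.01 in EYFP and -0.02 and 0.08 in hTyr animals, none past the threshold. Over the 14 Ube2 genes that missed it in EYFP animals the changes were -0.21 to 0.13, and over the 16 in hTyr animals -0.24 to 0.08. The outermost at the low end in both was Ube2l6, the enzyme of the ubiquitin-like protein ISG15 and the member with the fewest reads.

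Per length of exon, counted as the union of a gene's exons over its annotated transcripts, Ube2 genes were the more abundant family. Their median level was 5.17 log2 CPM per kb of exon in EYFP IP and 5.31 in EYFP input, against 3.38 and 2.95 for Usp genes. In EYFP IP the highest levels per kb were those of Ube2m (7.55), Ube2v1 (7.22) and Ube2b (6.54), and the lowest those of Usp53 (0.73) and Usp49 (0.25). Usp5 was the highest Usp gene at 6.26. Usp9x stood 38th among the members in EYFP input at 3.98 and 13th in EYFP IP at 5.42, and in hTyr animals 42nd and 13th. Usp genes have more exon bases by this count, with a median of 5017 against 3329 for Ube2 and 3449 over all genes with a length. Across genes the change from input to IP had a Spearman rho with length of 0.18 and 0.20 among the 44 Usp genes and of 0.05 and 0.11 among 12377 genes, as a description. With each library's trend on length removed, the Usp medians were 0.27 in both treatments and the Ube2 medians -0.16 and -0.17.

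The other genes of the pathway were counted from lists of symbols, to be read against the 28.5% of all genes called higher and 28.1% called lower in EYFP animals and the 27.4% and 27.0% in hTyr animals. Of 8 genes for E1 and E1-like enzymes 7 were higher in IP in both treatments, with medians of 0.68 and 0.93 on the log2 scale. Uba1, the main E1 enzyme of ubiquitin, rose by 0.49 and 0.52. Of 28 deubiquitinases of other families 9 were higher and 10 lower in EYFP animals, and 12 and 7 in hTyr animals. Among these, Uchl1, abundant in neurons, rose by 0.39 and 0.44. The ubiquitin gene Ubb rose by 0.37 in EYFP and by 0.56 in hTyr animals, while of the 10 genes for ubiquitin and ubiquitin-like proteins 2 were higher and 3 lower in EYFP animals and 2 and 4 in hTyr animals. Of 7 E2 or E2-like genes with other symbols, 0 were higher and 1 lower in EYFP animals and 1 higher and 2 lower in hTyr animals.

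hTyr against EYFP asks whether the infusion changed these transcripts. In IP, 0 of the 75 members passed the threshold (limma), where 0.0556% of all genes were called. At an unadjusted p under 0.05 there were 5 members, 2 Ube2 and 3 Usp, where 6.19% of all genes had such a p. The unadjusted count was 3 without animal hTyr_501 or hTyr_509, 4 without EYFP_504 or EYFP_511 and 6 without hTyr_502 or hTyr_508. It was 6 with a spread shared over the 22 libraries and 7 with the length trend removed. Among the 69 members in the upper 75% of genes by level it was 4. With voom on recovered reads, 0 members passed and 5 had an unadjusted p under 0.05. For 71 of the 75 members the 95% confidence interval of the change lay within 0.5 on the log2 scale on either side of 0, and for 74 within 1, with Usp11 as the exception. These intervals, and not the missed threshold, bound how far the members may have changed.

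The lowest unadjusted p in IP belonged to the pseudogene Ube2d-ps. Its hTyr IP values were 3.21, 3.71, 3.49, 3.25 and 3.57 log2 CPM and its EYFP IP values ran from 3.63 through 3.98 to 4.08. The groups overlapped by 1 library on each side, animal hTyr_502 lying above animal EYFP_504. The difference was -0.46 (95% interval -0.73 to -0.19, adjusted p = 0.533). It came nearest to the threshold with a spread shared over the 22 libraries (adjusted p = 0.0552). In input the difference was -0.11, and the interaction for Ube2d-ps was -0.35 (adjusted p = 0.996). From input to IP this gene fell by 0.34 in EYFP animals and by 0.69 in hTyr animals.

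Ube2j1 was 7.95, 7.91, 7.72, 7.55 and 7.72 log2 CPM in hTyr IP and ran from 7.45 through 7.58 to 7.61 in EYFP IP. All hTyr animals but hTyr_509 were above the highest EYFP animal, and the difference was 0.22 (95% interval 0.04 to 0.39, adjusted p = 0.769). Usp19 differed by -0.24 (adjusted p = 0.771) and Usp54 by -0.21 (adjusted p = 0.776). The members with the largest enrichment showed small differences in IP: 0.02 for Usp9x (95% interval -0.27 to 0.32), 0.08 for Usp14 (-0.19 to 0.34) and -0.03 for Usp15 (-0.31 to 0.24).

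**Figure D4:**
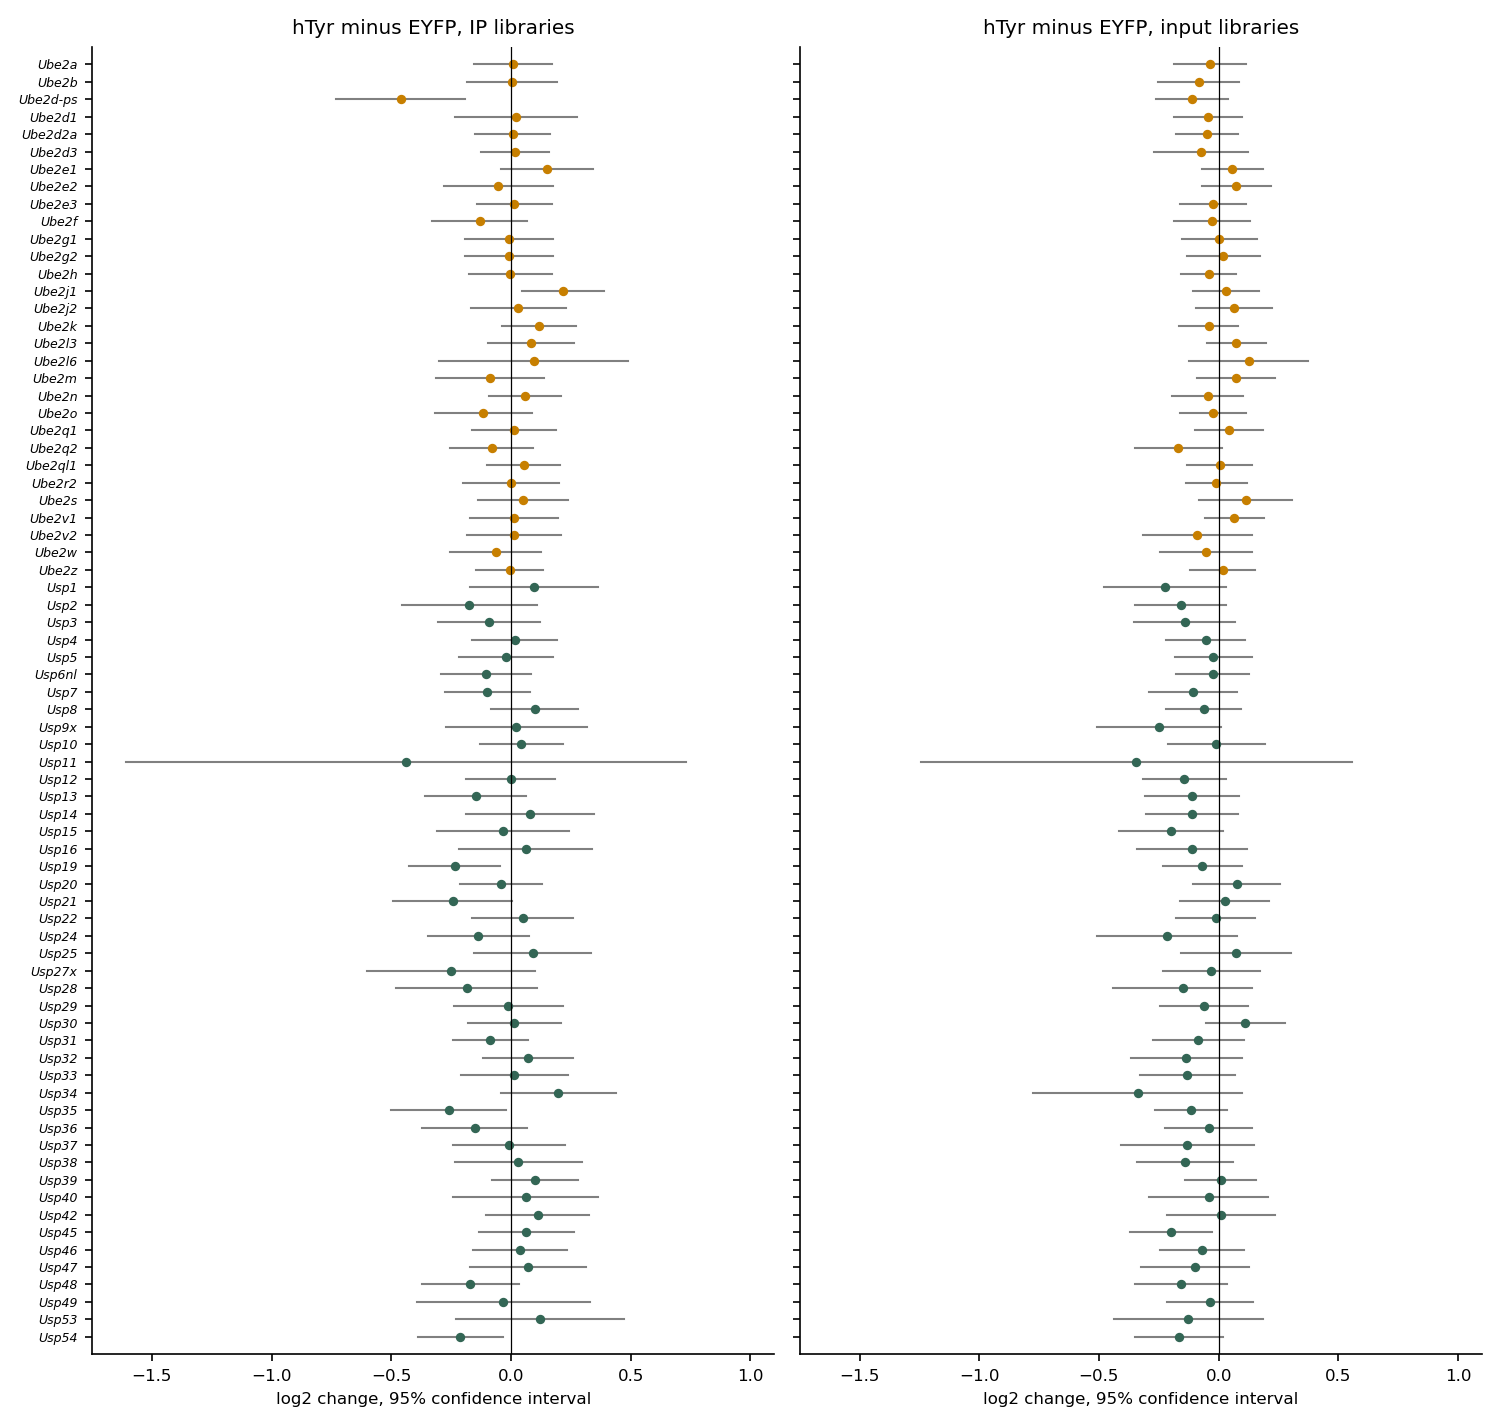
Log2 change of hTyr against EYFP (horizontal axes; points) with 95% confidence intervals (lines) for 74 of the 75 genes in IP (left) and input (right), Ube2 genes in orange and Usp genes in green. No member passed the adjusted threshold, and Usp11 has the widest interval in both.

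In input, 0 of the 75 members passed, where 0.00794% of all genes were called. A single member, Usp45, had an unadjusted p under 0.05, where 3.03% of all genes did, and the same count came from voom. That count was 0 without animal hTyr_501, 2 without EYFP_507 or EYFP_512, 3 without hTyr_508 or hTyr_510, 6 without EYFP_505 and 11 without hTyr_509. The 6 EYFP animals had a mean Usp45 level of 5.01 ± 0.12 log2 CPM (SD) and the 5 hTyr animals 4.81 ± 0.13 (SD), and the change was -0.20 (adjusted p = 0.99), with overlapping groups. Usp9x differed by -0.25 (95% interval -0.51 to 0.01), Ube2q2 by -0.17 (-0.35 to 0.01) and Usp15 by -0.20 (-0.41 to 0.02), all with an adjusted p of 0.99. Without animal hTyr_501 these differences were -0.11, -0.10 and -0.11. Of the 44 Usp genes 38 (86.4%) had a lower mean in hTyr input, against 53.6% of all genes, with a median difference of -0.11, against -0.01 over all genes. Without animal hTyr_501, 37 Usp genes had a lower mean, with a median difference of -0.04. Over all genes with a length, this input difference had a Spearman rho of -0.41 with exon length, and with the length trend removed the Usp median was -0.06. The part of length in it was not tested further.

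The interaction, the hTyr effect in IP minus that in input, passed for 0 of the 75 members, where 0.00794% of all genes were called. At an unadjusted p under 0.05 there were 3 members in limma and 3 with voom, where 3.31% of all genes had such a p. That count was 1 without animal hTyr_501 or EYFP_511 and 5 without animal hTyr_502. The members were Ube2d-ps, Usp45 (0.26, 95% interval 0.01 to 0.51) and Usp34 (0.54, 95% interval 0.02 to 1.05), each with an adjusted p of 0.996. Next was Ube2j1 at 0.19. Without animal hTyr_501 the interaction was 0.34 for Usp34 and 0.10 for Ube2j1. With the animal as a block, 0 members passed, where 0.0397% of all genes did, and the lowest adjusted p was 0.699, for Usp34.

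Usp11 stood apart in its spread between animals. The gene lies at chrX:20703906-20720539 on the plus strand (GRCm38), in the stretch of the X chromosome that also holds Uba1, Cdk16 and Araf. Its SD within groups averaged 1.02, the largest of the members and larger than that of 99.7% of all genes. In hTyr IP it was 2.93, 6.68, 6.43, 6.71 and 6.92 log2 CPM (animals hTyr_501, hTyr_502, hTyr_508, hTyr_509 and hTyr_510), and in hTyr input 3.51, 6.14, 6.35, 6.37 and 6.39. In EYFP animals EYFP_504, EYFP_505, EYFP_506, EYFP_507, EYFP_511 and EYFP_512 it was 7.04, 5.51, 6.51, 5.62, 6.67 and 6.89 in IP and 6.58, 5.60, 6.18, 5.43, 6.60 and 6.17 in input. Animal hTyr_501 was far below all others in both of its libraries, with 132 reads in IP and 290 in input, and animals EYFP_505 and EYFP_507 were the next lowest in both of theirs.

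The nearby genes did not share this pattern in animal hTyr_501, where Uba1 was 8.04, Cdk16 8.20 and Araf 8.15 log2 CPM in IP, within or above the ranges of the other 10 animals (7.80 to 8.38, 7.92 to 8.45 and 7.83 to 8.07). Reads of 4 Y-linked genes (Ddx3y, Uty, Kdm5d and Eif2s3y) were at 2.65 to 6.33 log2 CPM in the 10 libraries of animals hTyr_501, EYFP_505, EYFP_507, hTyr_509 and EYFP_511, and at -3.21 to -1.51 in the other 12. The animals low in Usp11 were thus all among those with Y-linked reads, while hTyr_509 and EYFP_511, which also had them, were not low. The part of the animals' sex in this was not tested.

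Tests on Usp11 had wide intervals. The change from input to IP was 0.28 in EYFP animals (adjusted p = 0.383) and 0.18 in hTyr animals (adjusted p = 0.828). With the animal as a block the EYFP value passed (adjusted p = 0.00769) and the hTyr value did not (adjusted p = 0.212). Without animal hTyr_501 the hTyr rise was 0.37 (adjusted p = 0.00884). hTyr against EYFP in IP was -0.44 (95% interval -1.61 to 0.73) with animal hTyr_501 and 0.31 (-0.24 to 0.86, adjusted p = 0.989) without it. In input it was -0.34 with and 0.22 without that animal, so the sign of both differences rested on 1 animal.

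**Figure D5:**
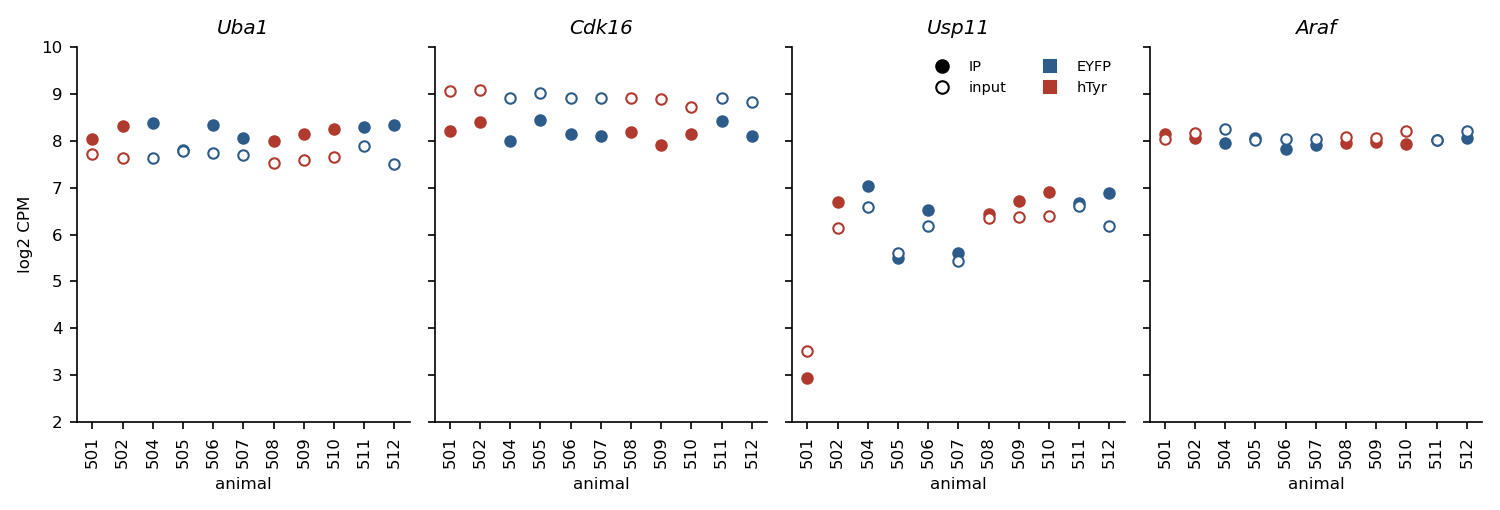
Level in log2 CPM (vertical axis) of Usp11 and 3 nearby X-linked genes in the IP (filled) and input (open) library of each animal (horizontal axis), EYFP in blue and hTyr in red. Usp11 was 2.93 and 3.51 in animal hTyr_501, and Uba1, Cdk16 and Araf showed no such drop.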

How the data were processed

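RNA-seq libraries came from IP and input RNA of 11 mice. Per the submitters' processing notes the tools were STAR and featureCounts and the build mm10, with versions, strand setting and filter not given in the sources used here. The authors deposited 1 table of log2 CPM values for 12596 genes and 22 libraries. All values came back as whole reads within 0.01, which gave 12654489 to 25100142 reads per library. Every pair of libraries within a group differed by more than sampling noise (chi-square of recovered reads over genes, 11.5 to 71.8 times its degrees of freedom), so all were kept as separate replicates.

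The members and lists were chosen with earlier results of these data known. Tests were run on the deposited log2 values of all genes with limma 3.58.1 in R 4.3.3 (lmFit, eBayes with trend), with Benjamini-Hochberg adjustment over all 12596 genes and a threshold of 0.05. All adjusted p values are from this tool. In IP against input the text names, per family, up to 6 of the largest rises and 6 of the largest falls taken from members that passed and had IP wholly above or below input. In the other comparisons it names the 4 lowest unadjusted p values. A list of members is named whatever their values, namely Ube2m, Ube2n, Ube2k, Ube2l3, Ube2j1, Ube2j2, Ube2g2, Ube2d3, Usp5, Usp7, Usp8, Usp9x, Usp11, Usp14, Usp22, Usp30, Usp46, Usp6nl, Usp39 and Usp53. The values of 1 other member, which enters the counts but not the figures, are not reported here. Other members are named within role lists or after their values were seen. IP and input of an animal varied together: their deviations from group means had a mean r of 0.448 (range 0.279 to 0.626, 11 animals). The main tests compared group means without a term for the animal, so they did not use this pairing. Only the alternative with the animal as a block did.

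Alternatives were no variance trend, quantile normalization, median centring, the upper 75% of genes by level, a pseudocount of 5 CPM, a shared spread, removal of each library's length trend (loess, span 0.4; lengths for 98.3% of genes from GENCODE M21), voom on recovered reads, the replicate block with and without length removal, and leaving out each animal. The fits were tested on simulated data. Sequences were cut from GENCODE M21 transcripts, and shared 75-base sequences were counted between its transcripts. Figures were drawn with Python 3.11.15.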

Additional observations from a re-analysis of the deposited data

Results flagged for a closer look

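In 156 sets of libraries (39 named members in 4 groups), 14 had a lowest or highest library far from the others relative to the range of its group. Chance alone flags about 1 in 20 such sets, or 7.8 here. Of the 14, 6 were in the hTyr_501 input library, which was the lowest input library for 24 of 44 Usp genes, and 3 in the EYFP_505 input library. The lowest library stood apart for Usp11 in hTyr IP (2.93 log2 CPM, next 6.43) and hTyr input (3.51, next 6.14), both of animal hTyr_501. It did so for Ube2d1 in EYFP input (EYFP_511, 6.21, next 6.38) and hTyr input (hTyr_501, 6.17, next 6.35), Ube2e2 in hTyr IP (hTyr_510, 5.96, next 6.33) and Ube2j1 in hTyr input (hTyr_501, 7.76, next 7.97). It also did so for Ube2v2 in hTyr input (hTyr_501, 5.77, next 6.14), Usp33 in EYFP input (EYFP_505, 6.32, next 6.44) and hTyr input (hTyr_501, 5.89, next 6.34), and Usp6nl in EYFP input (EYFP_505, 5.32, next 5.44). The highest library stood apart for Ube2l3 in EYFP IP (EYFP_505, 7.81, next 7.65), Usp12 in EYFP input (EYFP_505, 6.53, next 6.38), Usp19 in hTyr input (hTyr_501, 5.99, next 5.81) and Usp49 in EYFP input (EYFP_512, 4.26, next 4.11).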

How the results depend on the processing

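The Usp genes called lower in EYFP animals numbered 7, but 12 with median centring, 11 with quantile normalization and 11 with the replicate block and the length trend removed. In hTyr animals they numbered 6, but 10 with the length trend removed, 10 with median centring and 11 with both the replicate block and length removal. Lower calls over all genes in EYFP animals also rose, from 3536 to 4228 with median centring and 3913 with quantile normalization. In hTyr animals lower calls over all genes went from 3399 to 4170 with median centring and to 3347 with the length trend removed. The 2 Ube2 genes called higher in hTyr animals were 1 with the length trend removed, with median centring or without a variance trend, and 1 to 2 when an animal was left out (1 without hTyr_502, hTyr_508, hTyr_509 or hTyr_510). Other counts from IP against input stayed within 1.5 times under every alternative run. Median centring moved the median change of all genes from -0.03 to -0.08 in EYFP and from -0.04 to -0.10 in hTyr animals. Counts of members called between hTyr and EYFP, and in the interaction, were 0 under every alternative run. The replicate block changed no call beyond those given above.

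Signs also reversed for members that did not pass the test. Usp11 between hTyr and EYFP went from -0.44 to 0.31 in IP and from -0.34 to 0.22 in input without animal hTyr_501. Ube2g2 was 0.012 in EYFP animals and 0.0053 in hTyr animals with length removed, with or without the block. With an animal left out it ran from -0.033 to 0.027 in EYFP and from -0.099 to 0.030 in hTyr animals. In hTyr animals Ube2n was -0.056 and Ube2k -0.0094 with median centring. With an animal left out, Ube2n ran from -0.080 to 0.041, Ube2k from -0.014 to 0.12 and Ube2d3 from -0.12 to 0.0036. Causes were not tested. Depth limits Ube2l6 most, at 82 reads in 1 library.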
